A study of Mus musculus with 16 samples.

Results

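The genes described are the heat shock proteins and the J-domain chaperones of mouse adipose progenitors, the fat-resident cells that can become adipocytes. They were chosen by name from the count table: every gene whose symbol begins with Hspa, Hspb, Hspd, Hspe or Hsph followed by a digit, with Hsp90, or with Dnaja, Dnajb or Dnajc followed by a digit. The 8 pseudogene entries with names ending in -ps were left out, which left 72 genes of 38720 entries. Of these, 68 passed the filter on low counts and were tested. The other 4 (Dnajb8, Dnajc5b, Dnajc5g and Hspb3) had at most 12 counts in any library.

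RNA was sequenced from progenitors of subcutaneous fat (SAT) and visceral fat (VAT) of mice 4 weeks old. The groups were Nr4a1 knockout (KO) SAT, wild type (WT) SAT, KO VAT and WT VAT, with n = 4 libraries each. KO mice carried the Nr4a1tm1Jmi allele, listed as B6;129S2-Nr4a1tm1Jmi/J, and the other mice are listed only as wild type. The strain label reads C57BL/6J for both genotypes. The allele and the 129S2 chromosome segments that may accompany it cannot be told apart. NR4A1 (Nur77) is an orphan nuclear receptor, and its gene belongs to the immediate early genes. The study calls the libraries biological replicates, and nothing in the sources used here says whether each came from a separate animal. The p-values measure the spread between these libraries only. The labels give neither the isolation markers nor the sex, litter or day of each preparation.

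Molecular chaperones bind unfolded protein and help it fold, keep it soluble or pass it on for degradation. HSP70 proteins do this in cycles of ATP use: J-domain proteins (DNAJ) deliver the substrate and start ATP hydrolysis, and HSP110 proteins and other exchange factors reset the cycle. Small heat shock proteins (HSPB) hold unfolded protein without ATP, HSP90 finishes the folding of kinases and nuclear receptors, and the mitochondrial chaperonin encloses imported proteins. Cytosolic stress raises many of these genes through heat shock factor 1, while stress in the endoplasmic reticulum (ER) raises a separate set through the unfolded protein response. Enzymatic digestion of tissue is itself known to raise heat shock and immediate early genes.

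By family, the 72 genes comprised 8 of the HSPB family (Hspb1, Hspb2, Hspb3, Hspb6, Hspb7, Hspb8, Hspb9 and Hspb11), and 14 of the HSP70 and HSP110 family (Hspa1a, Hspa1b, Hspa1l, Hspa2, Hspa4, Hspa4l, Hspa5, Hspa8, Hspa9, Hspa12a, Hspa12b, Hspa13, Hspa14 and Hsph1). There were 3 HSP90 genes (Hsp90aa1, Hsp90ab1 and Hsp90b1) and the 2 chaperonin genes Hspd1 and Hspe1. The J-domain genes were 4 of class A (Dnaja1 to Dnaja4), 13 of class B (Dnajb1 to Dnajb9 and Dnajb11 to Dnajb14) and 28 of class C. Class C comprised Dnajc1 to Dnajc5, Dnajc5b, Dnajc5g, Dnajc6 to Dnajc19, Dnajc21, Dnajc22, Dnajc24, Dnajc25, Dnajc27, Dnajc28 and Dnajc30. By the place where the protein works, 29 were set down as cytosolic, 12 as ER, 8 as mitochondrial, 5 as vesicle or endosome and 3 as nuclear, and 15 were not assigned.

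The promoters of 5 genes called lower in KO SAT are shown first, chosen because they hold the letters that heat shock factors recognise. Hspb7 and Dnajb9, also called between genotypes, had a window without a match and are not shown. Hspa8, called in KO SAT, had no window. Each line gives the RefSeq sequence (GRCm38.p6) from 250 bases before to 50 bases after an annotated transcript start, on the strand of the gene. Windows were found for 58 of the 72 genes. Capitals mark the 2-unit heat shock motif, GAANNTTC or TTCNNGAA, which reads the same on both strands. Overlapping matches run together as 1 block of capitals.
Hspa1b: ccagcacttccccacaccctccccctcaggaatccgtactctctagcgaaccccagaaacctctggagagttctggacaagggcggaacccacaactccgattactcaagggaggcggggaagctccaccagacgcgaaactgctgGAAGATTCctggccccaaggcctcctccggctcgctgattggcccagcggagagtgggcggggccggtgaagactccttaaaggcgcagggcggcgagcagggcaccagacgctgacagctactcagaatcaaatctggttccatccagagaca
Hspa1a: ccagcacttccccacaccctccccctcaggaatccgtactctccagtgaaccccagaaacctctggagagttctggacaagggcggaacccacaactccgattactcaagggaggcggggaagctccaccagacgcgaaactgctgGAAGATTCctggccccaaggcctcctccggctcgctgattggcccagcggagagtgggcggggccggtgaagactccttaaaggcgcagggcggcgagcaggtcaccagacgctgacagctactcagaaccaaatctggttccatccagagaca
Hsph1: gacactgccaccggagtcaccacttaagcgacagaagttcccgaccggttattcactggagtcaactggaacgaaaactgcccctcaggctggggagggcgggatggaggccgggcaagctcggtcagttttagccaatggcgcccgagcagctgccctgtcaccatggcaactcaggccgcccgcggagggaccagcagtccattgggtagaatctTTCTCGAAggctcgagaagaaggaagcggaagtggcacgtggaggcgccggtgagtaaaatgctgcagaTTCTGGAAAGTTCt
Hspb1: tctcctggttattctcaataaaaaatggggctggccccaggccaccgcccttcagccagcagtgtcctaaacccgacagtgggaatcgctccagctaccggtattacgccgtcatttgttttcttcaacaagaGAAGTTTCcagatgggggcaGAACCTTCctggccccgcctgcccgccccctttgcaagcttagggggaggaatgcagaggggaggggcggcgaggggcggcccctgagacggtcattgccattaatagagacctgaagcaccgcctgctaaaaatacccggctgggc
Hspb8: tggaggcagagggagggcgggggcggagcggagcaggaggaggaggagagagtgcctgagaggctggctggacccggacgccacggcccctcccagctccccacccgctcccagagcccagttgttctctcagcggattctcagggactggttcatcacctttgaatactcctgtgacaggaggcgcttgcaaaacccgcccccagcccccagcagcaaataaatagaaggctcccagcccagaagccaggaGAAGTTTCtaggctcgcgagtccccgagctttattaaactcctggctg

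These windows lie at chr17:34959189-34959488 for Hspa1b, chr17:34972107-34972406 for Hspa1a, chr5:149636287-149636586 for Hsph1, chr5:135887669-135887968 for Hspb1 and chr5:116422815-116423114 for Hspb8. Hspb1 lies on the plus strand and the other 4 on the minus strand. Hspa1b and Hspa1a, which encode the stress-inducible HSP70, sit 9951 bases apart, and their windows are identical at 296 of 300 positions. Each has 1 match, with its first base at position -104. Hspb1 has 2 matches, Hspb8 has 1 that begins 3 bases after the start, and Hsph1 has 3. A second pair of windows is shown for contrast, because neither gene was called between genotypes. In Hspe1, the mitochondrial co-chaperonin gene, capitals mark the longer 3-unit heat shock motif, in which the units GAA and TTC alternate 3 times with NN between them, starting with either. In Hspa5, which encodes the ER HSP70 protein BiP, they mark the ER stress element, CCAAT followed after 9 bases by CCACG, or its reverse complement on the other strand.
Hspe1: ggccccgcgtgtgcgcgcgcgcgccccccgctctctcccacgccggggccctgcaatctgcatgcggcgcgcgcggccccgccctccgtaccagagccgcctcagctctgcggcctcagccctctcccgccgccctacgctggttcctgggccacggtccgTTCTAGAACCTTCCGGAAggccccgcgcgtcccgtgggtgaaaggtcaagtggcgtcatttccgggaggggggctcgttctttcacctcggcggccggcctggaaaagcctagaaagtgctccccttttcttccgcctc
Hspa5: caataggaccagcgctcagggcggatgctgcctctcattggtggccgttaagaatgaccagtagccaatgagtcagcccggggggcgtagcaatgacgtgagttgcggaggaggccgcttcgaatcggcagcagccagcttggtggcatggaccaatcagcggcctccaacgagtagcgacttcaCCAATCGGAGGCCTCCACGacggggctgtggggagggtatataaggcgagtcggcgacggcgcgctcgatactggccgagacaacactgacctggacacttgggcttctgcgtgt

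Both lie on the plus strand, at chr1:55087898-55088197 for Hspe1 and chr2:34771840-34772139 for Hspa5. The Hspe1 window shares 285 bases with a window of Hspd1, which is read the other way from the same stretch. The 2-unit motif occurred in 16 of the 58 genes with a window (27.6%), against 17.0% of all 27025 genes with a window and 15.1% of all 32851 windows. The 3-unit motif, each match of which also holds 2 overlapping 2-unit matches, occurred in 4 of the 58 genes (Hspd1, Hspe1, Hsph1 and Dnajb6), against 0.662% of all genes. The ER stress element occurred in Hspa5, Hsp90b1 and Dnajc3, all among the 11 ER genes with a window, against 0.137% of all genes. A match only says that these letters are present, and its absence from a window says nothing of the factor.

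**Figure D1:**
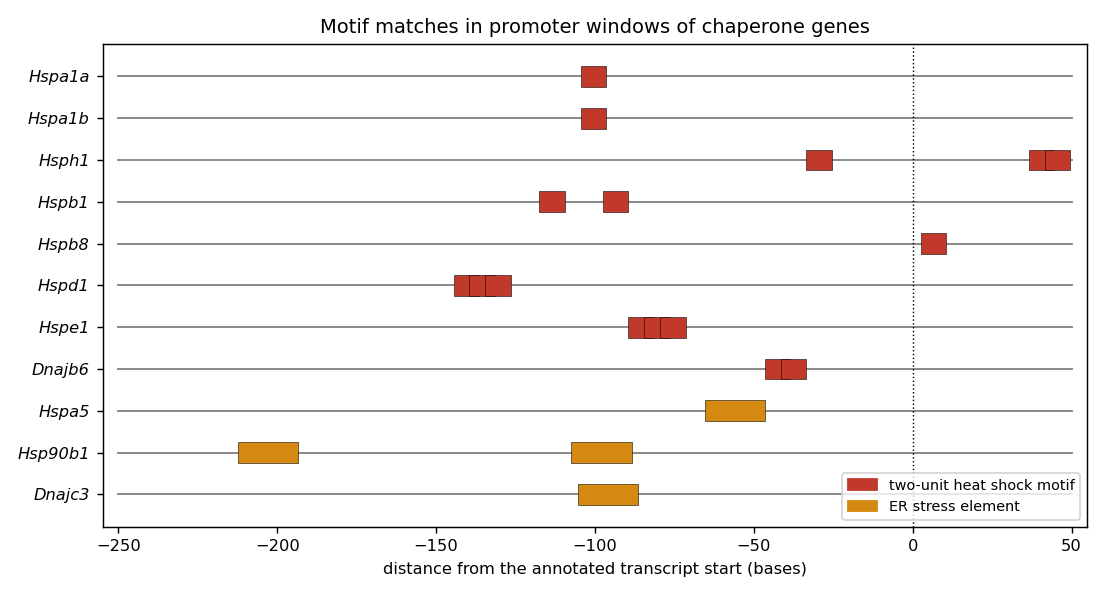
Motif matches in the promoter windows of 11 chaperone genes, by distance in bases from the annotated transcript start (dotted line); red boxes are 2-unit heat shock motifs and orange boxes ER stress elements. Hspa1a and Hspa1b have their single match at the same distance, and Hspa5, Hsp90b1 and Dnajc3 hold only the ER element.

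Total counts per library ranged from 34655519 to 55551845, and 16842 genes were tested. Levels are given as CPM (counts scaled to a fixed library size) after scaling by the TMM method, as mean ± SD with n = 4. Changes are log2 fold changes ± SE, and adjusted p is the Benjamini-Hochberg value of the edgeR quasi-likelihood test over all tested genes, called under 0.05. Nr4a1 itself stood at 202, 209, 195 and 199 CPM in KO SAT, against 1212, 1121, 1018 and 997 CPM in WT SAT, and fell by 2.43 ± 0.078 in KO SAT and 2.31 ± 0.078 in KO VAT. WT SAT replicate 3 lay farthest from its group, with a mean correlation of 0.976 with the other 3 libraries. In bulk RNA, fewer cells of a type and less RNA per cell cannot be told apart. The progenitor markers Pdgfra, Ly6a, Cd34, Dcn, Pdgfrb and Itgb1 were above 0 in every group, and together they summed to 12147 to 13421 CPM in KO SAT, 12571 to 17021 CPM in WT SAT, 9929.9 to 11063 CPM in KO VAT and 12661 to 13288 CPM in WT VAT.

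Per length of exon, a few chaperones made up most of the level. Hsp90ab1, the constitutive cytosolic HSP90, was the highest of the 72 when averaged over all libraries, at 397 ± 17.5 CPM per kb in KO SAT, 456 ± 44.9 in WT SAT, 334 ± 15.6 in KO VAT and 343 ± 19.0 in WT VAT. Hspa5 came next, at 304 ± 34.8 CPM per kb in KO SAT and 286 ± 30.8 in WT SAT. Hspa8, the constitutive cytosolic HSP70, stood at 248 ± 22.0 CPM per kb in KO SAT and 313 ± 23.4 in WT SAT. The ranges of mean plus and minus SD of Hspa5 and Hspa8 overlapped in KO SAT and in WT SAT.

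Hsp90b1, the ER HSP90 known as GRP94, and Hspa1b followed, with means over all libraries of 189 and 165 CPM per kb. The next places were close together: Hspb8, Hspb1 and Dnajb1 averaged 93.8, 91.1 and 88.5 CPM per kb, and their order differed between depots. Hspb8 stood above Hspb1 in SAT (93.5 ± 8.63 against 45.8 ± 6.55 CPM per kb in KO), and below it in VAT (66.1 ± 0.617 against 94.3 ± 8.58 in KO). In each J-domain class 1 gene led per length: Dnajb1, the main HSP70 partner under stress, in class B, Dnaja2 (37.4 CPM per kb) in class A and Dnajc3 (45.3 CPM per kb) in class C. Dnajc22, Dnajb7 and Hspa1l were tested but averaged only 0.103, 0.228 and 0.279 CPM per kb. Together the 72 genes took 0.717% to 0.812% of all counts in KO SAT, 0.813% to 0.905% in WT SAT, 0.774% to 0.881% in KO VAT and 0.818% to 0.902% in WT VAT.

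**Figure D2:**
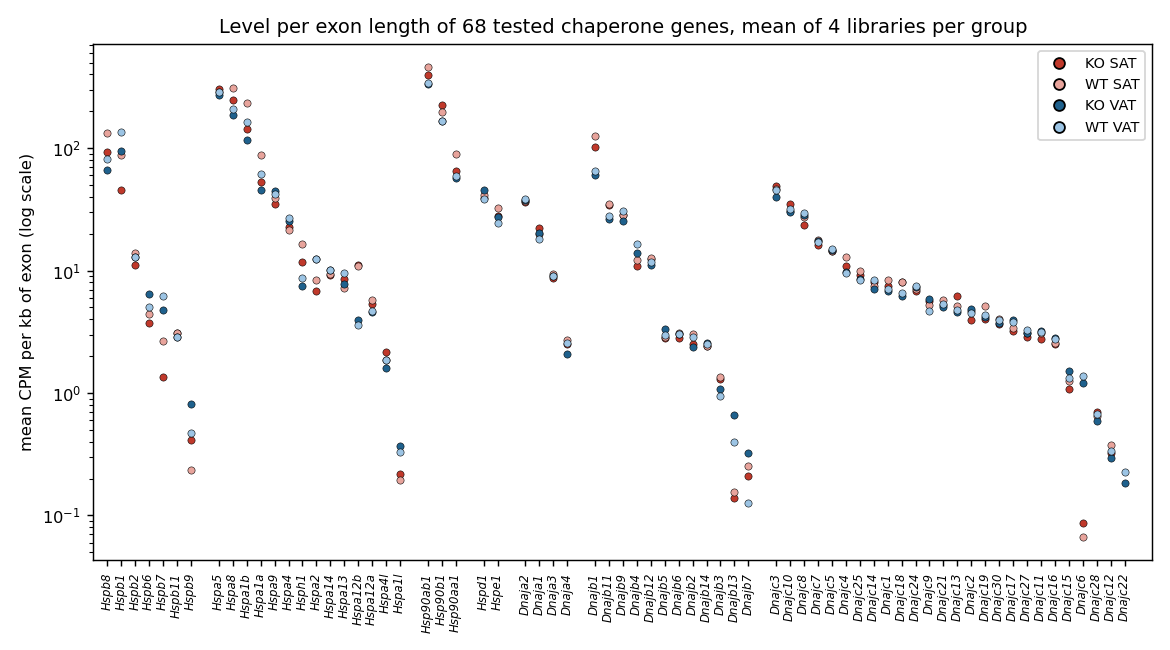
Mean level of each of the 68 tested genes in each group (n = 4 libraries), in CPM per kb of exon on a log scale, grouped by family and ordered within family by the mean over all libraries. Hsp90ab1, Hspa5 and Hspa8 stand highest, and groups at 0 (Dnajc22 in SAT) have no point.

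The first comparison asked which chaperone genes the knockout changed in SAT. In KO SAT 7 of the 68 tested genes fell (10.3%), against 2.43% of all tested genes called lower. They were the inducible HSP70 genes Hspa1a and Hspa1b, the constitutive Hspa8, the HSP110 gene Hsph1, and the small heat shock genes Hspb1, Hspb7 and Hspb8. None of the 68 was called higher by edgeR or limma-voom (3 at an unadjusted p under 0.05, and 2 with DESeq2), against 3.46% of all tested genes. All 7 were among the 28 tested cytosolic genes, of which the other 21 were not called. Of the 12 ER genes 0 were called (1 higher at an unadjusted p under 0.05, 1 with DESeq2 and 0 with limma-voom), and of the 8 mitochondrial genes 0 (3 lower at an unadjusted p under 0.05, 2 with DESeq2 and 0 with limma-voom).

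Hspa1b (ENSMUSG00000090877.3, chr17:34956436-34959238, GRCm38) had 418, 406, 412 and 384 CPM in the KO SAT libraries, against 598, 732, 651 and 659.5 CPM in WT SAT. The groups did not overlap, and the fitted level in KO was 61.4% of that in WT (-0.70 ± 0.086, adjusted p = 0.000119). Hspa1a (ENSMUSG00000091971.3, chr17:34969190-34972156) had 167, 162, 147 and 149 CPM in KO SAT, against 250.4, 267, 284 and 239 CPM in WT SAT. Here too every KO library lay below every WT library (-0.74 ± 0.091, adjusted p = 0.00013). Of the 75-base words of their exons, the read length, 55.8% in Hspa1b and 61.7% in Hspa1a also occur in other annotated genes, chiefly in each other. Their reads could be split between the pair by the counting, so the sum was fitted as well. It fell by 0.71 ± 0.085 in KO SAT (adjusted p = 0.000105).

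Hspa8 (ENSMUSG00000015656.17, chr9:40800984-40810087) had 1153, 1114, 935 and 1065 CPM in KO SAT, against 1365, 1285, 1477 and 1251 CPM in WT SAT, without overlap. It was the smallest of the called changes, at -0.33 ± 0.083 (adjusted p = 0.0252). It was no longer called when KO SAT replicate 3 (adjusted p = 0.0835), KO SAT replicate 4 (0.0743) or WT SAT replicate 1 (0.0589) was left out. The call also ended with no filter on low counts (adjusted p = 0.0538). Of the 75-base words of Hspa8, 33.05% also occur in other annotated genes, Gm15459, Gm26825 and Gm8355 among them, so part of its counts could come from them. In each library the pair Hspa1a and Hspa1b was set against Hspa8: their summed CPM was 0.508, 0.510, 0.598 and 0.50 of the Hspa8 CPM in KO SAT, and 0.621, 0.777, 0.633 and 0.719 in WT SAT. The ratios did not overlap between genotypes. Hsph1 (ENSMUSG00000029657.15, chr5:149614287-149636376), the exchange factor that resets HSP70, had 82.7, 86.9, 85.6 and 86.9 CPM in KO SAT, against 125, 119.7, 116 and 117 CPM in WT SAT. Its KO and WT libraries were far apart for their spread, and the change was -0.48 ± 0.070 (adjusted p = 0.000472).

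Hspb7 and Hspb1 had the largest falls among the 68 genes. Hspb7 (ENSMUSG00000006221.7, chr4:141420779-141425311), known from heart and skeletal muscle, had 3.82, 4.02, 4.11 and 3.01 CPM in KO SAT, against 7.26, 9.37, 7.95 and 4.81 CPM in WT SAT. No KO library reached the lowest WT library, and the level in KO was 50.9% of that in WT (-0.97 ± 0.16, adjusted p = 0.00114). Hspb1 (ENSMUSG00000004951.10, chr5:135887919-135889563), which encodes HSP25, a protein linked to the actin cytoskeleton, had 55.8, 45.5, 48.1 and 39.5 CPM in KO SAT, against 96.8, 90.8, 109 and 65.0 CPM in WT SAT, again with no overlap (-0.93 ± 0.13, adjusted p = 0.000449). Of its 75-base words 46.4% also occur in other annotated genes (Hsp25-ps1 and Gm9817), so part of its counts could come from them. Hspb8 (ENSMUSG00000041548.4, chr5:116408491-116422864), the partner of BAG3 in the removal of damaged protein, had 204, 187, 171 and 168 CPM in KO SAT, against 301, 221, 313 and 210.1 CPM in WT SAT. The WT libraries fell into a high and a low pair, both above KO (-0.52 ± 0.12, adjusted p = 0.0141), and the call was lost without KO SAT replicate 4 (adjusted p = 0.0603).

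Hspb6, the HSP20 gene of muscle, was not called (-0.25 ± 0.17, adjusted p = 0.401), nor was Hspb2 (-0.31 ± 0.21, adjusted p = 0.4), whose exons overlap those of Cryab on the other strand. The library kit does not mark the strand, so reads from such overlaps cannot be told apart. Small heat shock genes are abundant in muscle, and markers of other cell types are given for that reason. The 8 markers of pericytes and smooth muscle summed to 1961 to 2691 CPM in KO SAT and 2446 to 4064 CPM in WT SAT. These sums overlapped, and 1 of the 8, Tagln, was called lower (-0.56 ± 0.16, adjusted p = 0.0487). The 8 markers of skeletal muscle summed to 10.7 to 18.6 CPM in KO SAT, with Tnnc2 at 0 in all 4 libraries, and to 17.4 to 24.4 CPM in WT SAT, and Myl1 was called lower (-0.92 ± 0.17, adjusted p = 0.00305). Schwann cell markers summed to 358 to 497 CPM in KO SAT and 415 to 755 CPM in WT SAT. The part of these cells in the HSPB results was not tested.

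**Figure D3:**
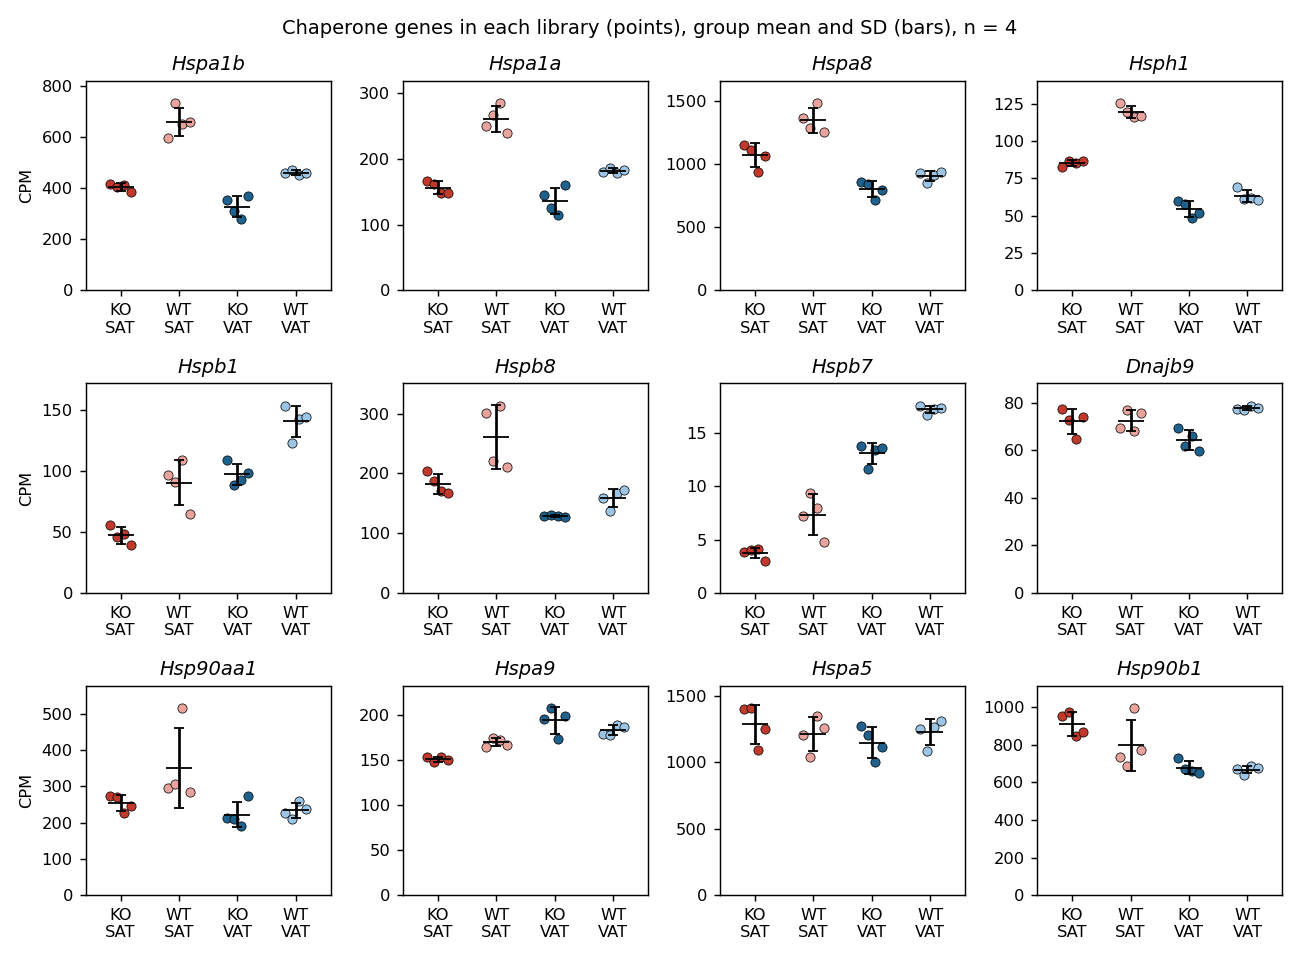
Level of 12 chaperone genes in each library, in CPM; points are libraries, bars the mean and SD of n = 4, and every axis starts at 0. The upper 7 panels to Hspb7 show the genes that fell in KO SAT, where no KO library reaches a WT library, while Hspa5 and Hsp90b1 overlap between genotypes in both depots.

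Several more cytosolic chaperones lay below WT without passing the threshold. Hsp90aa1, the stress-inducible HSP90, had 274, 271, 226 and 246 CPM in KO SAT, against 297, 307, 515 and 286 CPM in WT SAT. WT SAT replicate 3 stood far above its group, and the change of -0.47 ± 0.16 had an adjusted p of 0.0965. Of the 75-base words of Hsp90aa1, 42.8% also occur in other annotated genes, so part of its counts could come from them. Hsp90ab1 had 1230.1, 1240.0, 1136 and 1156 CPM in KO SAT, against 1359, 1274, 1562 and 1278 CPM in WT SAT (-0.20 ± 0.077, adjusted p = 0.136). Dnajb1 had 388, 323, 281 and 325 CPM in KO SAT, against 409.6, 409, 401 and 397 CPM in WT SAT. Its KO libraries varied widely below a tight WT group (-0.30 ± 0.096, adjusted p = 0.08), and it was called without KO SAT replicate 1 (-0.38, adjusted p = 0.0261). Dnaja1, an HSC70 cochaperone, lay the other way, with 207, 192, 187 and 185 CPM in KO SAT and 170.0, 181, 163 and 168 CPM in WT SAT (0.18 ± 0.059, adjusted p = 0.0868). These groups did not overlap. In VAT Dnaja1 was also higher without overlap, with 183, 174, 164 and 175 CPM in KO VAT and 160, 156, 154 and 156 CPM in WT VAT. By edgeR it was called in neither depot. DESeq2 called it higher in KO SAT (0.18, adjusted p = 0.0104) and in KO VAT (0.15, adjusted p = 0.0415). Of its 75-base words 18.4% also occur in other annotated genes. Dnaja2 differed little in KO SAT, at -0.02 ± 0.056 with a 95% interval of -0.15 to 0.10.

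No ER chaperone was called in SAT, and the leading ones were not below WT. Hspa5 had 1396, 1404, 1091 and 1251 CPM in KO SAT, against 1201, 1039, 1350.0 and 1255 CPM in WT SAT. The groups overlapped, with KO SAT replicates 1 and 2 above every WT library and WT SAT replicate 2 below every KO library (0.09 ± 0.10, 95% interval -0.14 to 0.31, adjusted p = 0.659). Hsp90b1 had 949.8, 972, 845 and 869 CPM in KO SAT, against 732, 684, 992 and 774 CPM in WT SAT, where replicate 3 was the highest of all 8. The change was 0.19 ± 0.096 (adjusted p = 0.25), and without WT SAT replicate 3 Hsp90b1 was called higher in KO SAT (0.32, adjusted p = 0.0137). Dnajc10, the ER disulfide reductase ERdj5, had 180.4, 177, 165 and 181 CPM in KO SAT, against 151, 154, 152 and 156 CPM in WT SAT. Its groups did not overlap, and it narrowly missed the threshold (0.20 ± 0.059, adjusted p = 0.0588). Dnajc3, which holds back the translation kinase PERK, stood at 253 ± 15.6 CPM in KO SAT and 237 ± 6.79 CPM in WT SAT (0.09 ± 0.068, adjusted p = 0.435), and Dnajb9 was close to 0 (-0.01 ± 0.067). Summed over genes, ER chaperones took 2785 to 3303 CPM in KO SAT and 2564 to 3245 CPM in WT SAT, which overlapped, while the 29 cytosolic genes took 4240.0 to 4805 CPM in KO SAT and 5295 to 6267 CPM in WT SAT, which did not. Whether the 2 compartments differ in their change was not tested.

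All 8 mitochondrial genes had log2 changes below 0 in KO SAT, between -0.35 and -0.08, and 0 were called. Hspa9, the HSP70 that pulls proteins into the matrix, had 153, 147, 153 and 149.9 CPM in KO SAT, against 165, 174, 172 and 167 CPM in WT SAT. The groups did not overlap (-0.17 ± 0.060, adjusted p = 0.11). Hspd1, the HSP60 subunit, had a change of -0.08 ± 0.080 (adjusted p = 0.606), and Hspe1, its HSP10 lid, of -0.21 ± 0.14 (adjusted p = 0.401). Of the 75-base words, 31.0% in Hspd1 and 14.6% in Hspe1 also occur in other annotated genes. In Hspe1, WT SAT replicate 3 held 68.7 CPM while the other WT libraries held 39.3 to 42.3 CPM.

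Over all 68 tested genes, 48 log2 changes were below 0 in KO SAT with a median of -0.10, while 51.7% of all tested genes were below 0 with a median of -0.01. Groups did not overlap for 15 genes that were lower in KO SAT, against 6.75% of all genes, and for 6 that were higher, against 7.95%. The 61 genes not called had changes between -0.47 and 0.78, and 51 of them lay within 0.25 of 0. Of the 6 called genes with a promoter window, 5 held the 2-unit heat shock motif, all but Hspb7, while Hspa8 had no window. With Dnajb9, called in VAT only and without the motif, it was 5 of 7 (71.4%). Hspa1a and Hspa1b, with windows identical at 296 of 300 positions, are 2 of the 5 and so not separate cases. Among the 48 genes with a window that were called in neither depot, 9 held the motif (18.8%), among them Hspd1, Hspe1 and Dnajb6 with the 3-unit form. Hspd1 and Hspe1 are not separate cases either, as their windows share 285 bases. Since all 7 genes called in SAT were cytosolic, the nearer comparison is with the cytosolic genes called in neither depot, where it was 5 of 16 (31.2%). Whether the motif goes with the change was not tested. The 26 tested class C genes gave 0 calls (2 higher and 3 lower at an unadjusted p under 0.05, 1 and 1 with DESeq2, 0 with limma-voom), and the 4 class A genes gave 0 (1 higher at an unadjusted p under 0.05, 1 with DESeq2, 0 with limma-voom). With DESeq2, 13 genes were called lower in KO SAT, adding Dnajb1, Dnajb2, Dnajc11, Hsp90aa1, Hsp90ab1 and Hspa9.

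The second comparison asked the same of visceral fat. The inducible HSP70 genes and Hspb1 were again lower in KO, with 1 ER gene: 4 of the 68 genes fell (5.88%), against 1.26% of all tested genes called lower. They were Hspa1a, Hspa1b, Hspb1 and Dnajb9. None was called higher by edgeR or limma-voom (6 at an unadjusted p under 0.05, and 2 with DESeq2), against 2.84% of all tested genes. Thus 3 genes, Hspa1a, Hspa1b and Hspb1, were called lower in both depots, and Hspa1a and Hspa1b may share reads. The share of all genes called lower in both was not counted. The depots have different libraries but share 1 fit, and the sources used here do not say whether they came from the same mice. The count of 4 became 7 without WT SAT replicate 3, which is in neither VAT group, and 2 without KO VAT replicate 2 or 4 or without WT VAT replicate 1, 3 or 4.

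Hspa1b had 355, 309, 278 and 368 CPM in KO VAT, against 459, 473, 450.3 and 460.1 CPM in WT VAT. KO libraries were spread wide, all below a tight WT group, and the level in KO was 71.1% of that in WT (-0.49 ± 0.085, adjusted p = 0.00236). Hspa1a had 145, 125, 114 and 159.5 CPM in KO VAT, against 179, 187, 178 and 183 CPM in WT VAT, likewise without overlap (-0.42 ± 0.091, adjusted p = 0.0128). The sum of both fell by 0.47 ± 0.085 (adjusted p = 0.0033). Hspb1 had 109, 88.4, 92.8 and 98.7 CPM in KO VAT, against 153, 123, 142 and 145 CPM in WT VAT. The groups did not overlap (-0.53 ± 0.13, adjusted p = 0.0293), and the call was lost without KO VAT replicate 2, 3 or 4 (adjusted p = 0.0884, 0.0738 and 0.0695) or WT VAT replicate 1, 3 or 4 (0.0935, 0.0688 and 0.0758). The 8 pericyte and smooth muscle markers summed to 4718 to 6136 CPM in KO VAT and 5025 to 5569 CPM in WT VAT, which overlapped. Skeletal muscle markers summed to 12.2 to 38.7 CPM in KO VAT, with Myh4 at 0 in all 4 libraries, and 14.3 to 16.6 CPM in WT VAT, with Myl1 lower in KO VAT (-0.64 ± 0.17, adjusted p = 0.0391), and their part in the Hspb1 result was not tested. Other marker sums did not overlap in VAT. The 6 progenitor markers summed to 9929.9 to 11063 CPM in KO VAT and 12661 to 13288 CPM in WT VAT. Their changes in KO VAT lay between -0.36 and -0.11, with a median of -0.19. Of these 6, 0 were called (2 lower at an unadjusted p under 0.05). The 4 mature adipocyte markers summed to 148 to 243 CPM in KO VAT and 90.6 to 104 CPM in WT VAT, with Plin1, Adipoq and Cidec called higher in KO. In SAT they summed to 127 to 158 CPM in KO and 155 to 196 CPM in WT, which overlapped, and 1 of the 4, Plin4, was called lower. The 6 endothelial markers summed to 94.7 to 114 CPM in KO VAT and 120.0 to 134 CPM in WT VAT, and 0 of them were called (3 at an unadjusted p under 0.05, Kdr and Tek lower and Vwf higher). Of 5 Schwann cell markers 1 was called lower in KO VAT, and of 7 macrophage markers 1 was called higher, with sums that overlapped. The part of all these cells in the 4 VAT calls was not tested.

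Dnajb9 (ENSMUSG00000014905.4, chr12:44205559-44210326), the ER J-domain protein ERdj4 that is raised by the unfolded protein response, had 69.2, 61.8, 66.2 and 59.8 CPM in KO VAT, against 77.5, 76.8, 78.7 and 77.7 CPM in WT VAT. Every KO library lay below a very tight WT group (-0.27 ± 0.067, adjusted p = 0.028). The call was lost without KO VAT replicate 2 or 4 (adjusted p = 0.0811 and 0.0907), or WT VAT replicate 1, 2, 3 or 4 (0.0691, 0.0603, 0.0731 and 0.0678). Hspa5 and Hsp90b1 were not called in KO VAT, at -0.10 ± 0.10 and 0.02 ± 0.096, and Dnajc3 stood at 207 ± 17.0 CPM in KO VAT and 236 ± 6.73 CPM in WT VAT (-0.19 ± 0.068, adjusted p = 0.135).

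The other genes called in SAT had smaller changes of the same sign in VAT. Hsph1 had 59.6, 58.1, 48.3 and 52.0 CPM in KO VAT, against 69.6, 61.5, 61.6 and 60.3 CPM in WT VAT, without overlap (-0.21 ± 0.070, adjusted p = 0.102). Hspb7 had 13.8, 11.6, 13.4 and 13.6 CPM in KO VAT, against 17.6, 16.8, 17.3 and 17.3 CPM in WT VAT, also without overlap (-0.39 ± 0.15, adjusted p = 0.157). Hspb8 had 128, 131, 129 and 128 CPM in KO VAT, against 158, 138, 167 and 173 CPM in WT VAT. Its KO libraries were almost equal, below every WT library (-0.30 ± 0.12, adjusted p = 0.177). Hspa8 overlapped (-0.18 ± 0.083, adjusted p = 0.289), as did Hsp90aa1 (-0.07 ± 0.16, adjusted p = 0.874) and Dnajb1 (-0.10 ± 0.096, adjusted p = 0.678). In all, 44 of 68 changes were below 0 with a median of -0.04, while 51.0% of all tested genes were below 0. Groups did not overlap for 11 genes lower in KO VAT, against 6.72% of all genes, and 2 higher, against 7.02%. With DESeq2, 8 genes were called lower in KO VAT, adding Dnajb2, Dnajb4, Dnajc3 and Hsph1 (adjusted p = 0.0424 for Hsph1). Dnaja1 and Hspd1 were called higher in KO VAT with DESeq2. Hspb7 was called lower in KO VAT by edgeR with only the groups compared (adjusted p = 0.0203) and without WT SAT replicate 4 (0.0456).

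**Figure D4:**
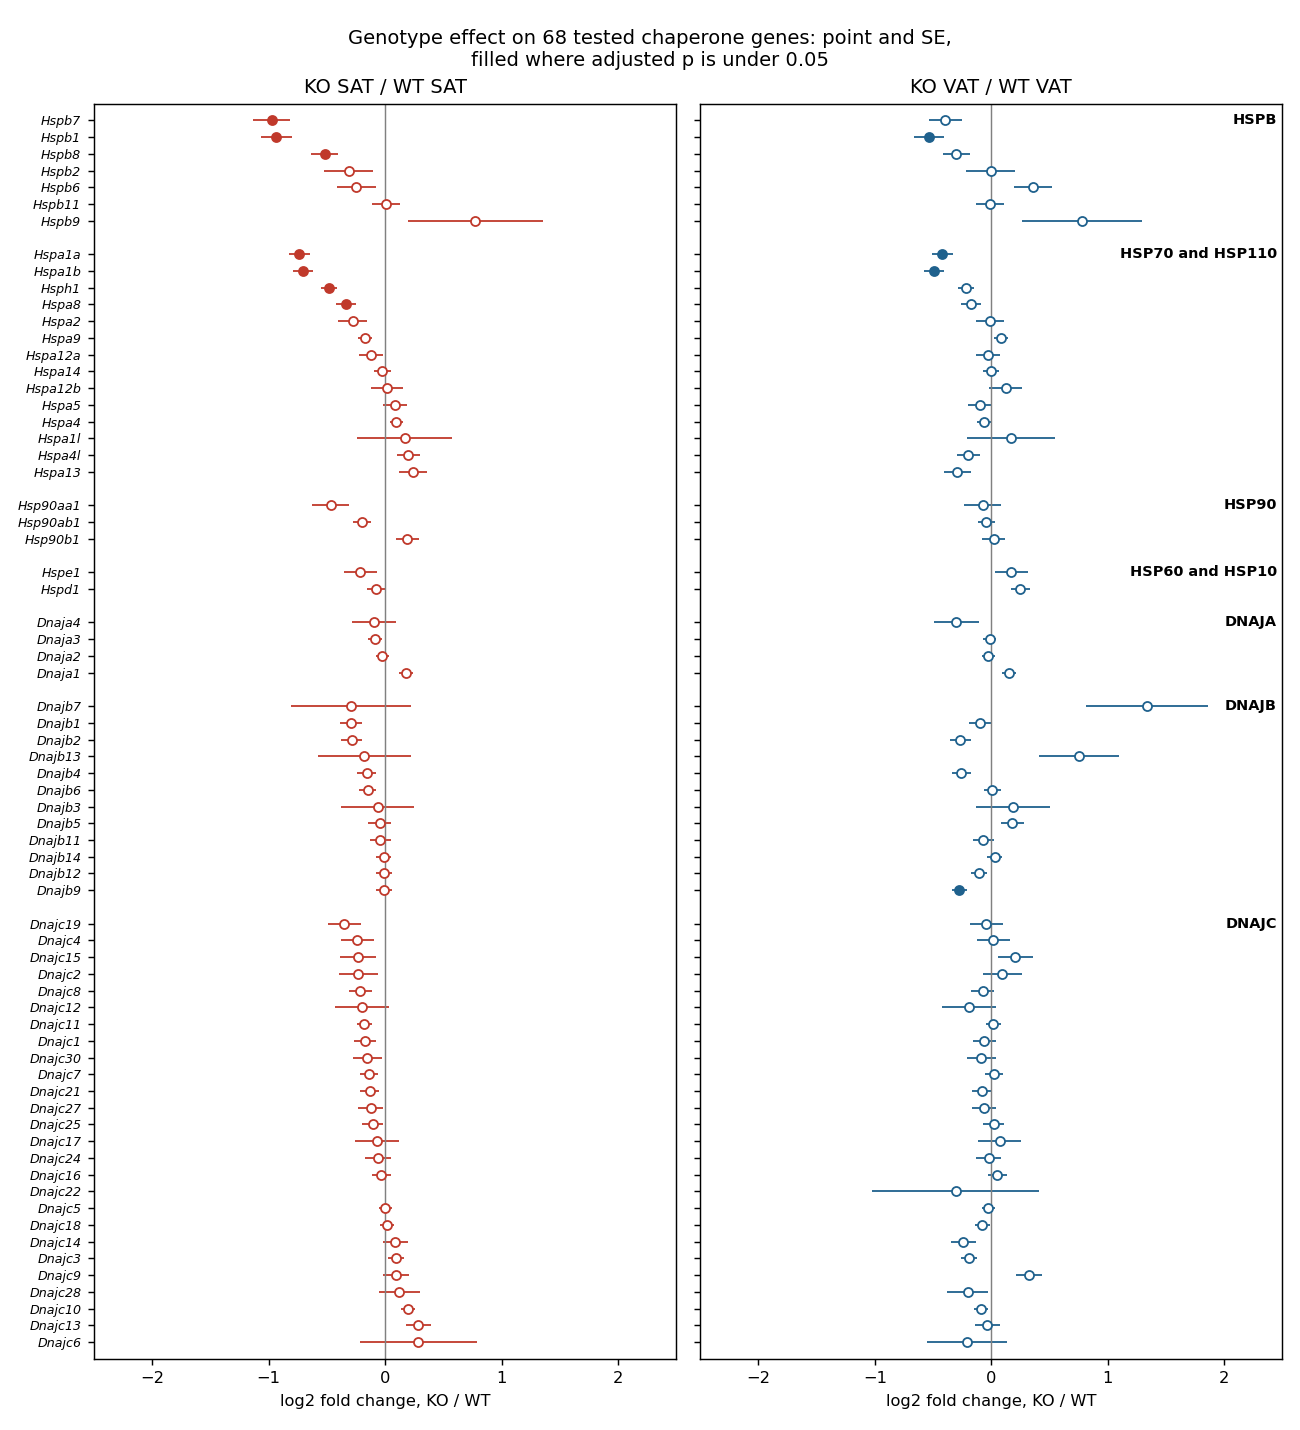
Genotype effect on the tested chaperone genes in SAT (left) and VAT (right), as log2 fold change of KO over WT with its SE, by family; filled points have adjusted p under 0.05. Filled points all lie left of 0, 7 in SAT and 4 in VAT, and Dnajc22 has no point in SAT because it was at 0 in all SAT libraries.

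Whether the genotype effect differed between depots was tested directly, as the KO effect in VAT minus that in SAT. By edgeR 0 of the 68 genes were called (9 higher and 6 lower at an unadjusted p under 0.05), against 0.131% of all genes higher and 0.137% lower. With limma-voom 0 were called, and with DESeq2 Hspa9 was called higher (0.25, adjusted p = 0.0351) and Dnajc10 lower (-0.29, adjusted p = 0.0124). The difference was 0.21 ± 0.12 for Hspa1b (95% interval -0.05 to 0.47), 0.32 ± 0.13 for Hspa1a (0.04 to 0.59) and 0.40 ± 0.19 for Hspb1 (-0.01 to 0.81). For Hspb7 it was 0.58 ± 0.21 (0.12 to 1.04), for Hsph1 0.27 ± 0.099 (0.05 to 0.48) and for Dnajb9 -0.27 ± 0.095 (-0.47 to -0.06). Of the 8 genes called in either depot, 7 had the larger change in SAT. That count is largely set by how the genes were chosen, since 3 were called in both depots, 4 in SAT only and 1 in VAT only. For each of the 8 the test of the difference was not passed (adjusted p of 0.198 or more). Across the 68 genes, 46 differences were above 0 with a median of 0.08, while the median of all genes was 0.03. In VAT, 5 of the 8 mitochondrial changes were above 0, with Hspd1 at 0.25 ± 0.080 (adjusted p = 0.0977) and its KO VAT replicate 3 the lowest of 4 (127, 135, 98.8 and 124 CPM in KO VAT, against 97.5, 95.5, 104 and 111 CPM in WT VAT). Without that library Hspd1 was called higher in KO VAT (0.33, adjusted p = 0.007), and its difference between depots was called as well (0.41, adjusted p = 0.0415). The difference was above 0 for all 8 mitochondrial genes, between 0.07 and 0.44.

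Other genes of the chaperone system were counted from lists written with earlier results known. Over all tested genes, 2.43% were called lower and 3.46% higher in KO SAT, and 1.26% lower and 2.84% higher in KO VAT. No heat shock factor gene of 6 was called in KO SAT or KO VAT (0 and 1 at an unadjusted p under 0.05), and Hsf1 had changes of -0.13 ± 0.060 (adjusted p = 0.226) in SAT and -0.03 ± 0.060 (adjusted p = 0.863) in VAT. Of 15 HSP70 exchange and partner cochaperones, 3 fell in KO SAT. Bag3, an exchange factor that pairs with HSPB8, had 156, 153, 150.1 and 150.4 CPM in KO SAT, against 199.8, 182, 225 and 208 CPM in WT SAT, without overlap (-0.42 ± 0.070, adjusted p = 0.00163). The others were Hspbp1, also an exchange factor (-0.53 ± 0.12, adjusted p = 0.0116), and Stub1, the ubiquitin ligase CHIP (-0.34 ± 0.086, adjusted p = 0.026). In KO VAT 0 of the 15 were called (3 lower at an unadjusted p under 0.05), with Bag3 at -0.12 ± 0.070 (adjusted p = 0.421).

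Of 14 HSP90 cochaperones, the myosin chaperone gene Unc45a fell in KO SAT (-0.36 ± 0.069, adjusted p = 0.00526), and 0 were called in KO VAT (1 lower at an unadjusted p under 0.05). Of 13 TRiC and prefoldin genes, which fold actin and tubulin, Pfdn5 fell in KO SAT (-0.65 ± 0.19, adjusted p = 0.0498) and 0 were called in KO VAT (1 lower at an unadjusted p under 0.05). Of 20 ER folding genes, the disulfide isomerase gene Pdia4 rose (0.31 ± 0.077, adjusted p = 0.0236) and Herpud1, of ER-associated degradation, fell (-0.30 ± 0.073, adjusted p = 0.0231) in KO SAT, and 0 were called in KO VAT (0 at an unadjusted p under 0.05). Of 6 J proteins and crystallins under other names, 0 were called in either depot (0 in SAT and 1 lower in VAT at an unadjusted p under 0.05).

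Some immediate early genes, which tissue digestion also raises, changed as well. Of 15 such genes 2 fell in KO SAT, Junb (-0.37 ± 0.073, adjusted p = 0.00541) and Jund (-0.45 ± 0.12, adjusted p = 0.0307). The 15 changes in KO SAT were all below 0, between -0.45 and -0.01. At an unadjusted p under 0.05, 5 were lower and 0 higher in KO SAT. In KO VAT 5 fell, Jun, Junb, Atf3, Dusp1 and Socs3, with changes between -0.44 and -0.28, and Nr4a2 rose (0.47 ± 0.12, adjusted p = 0.035). At an unadjusted p under 0.05, 9 were lower and 1 higher in KO VAT. The shares of all tested genes were 2.43% lower in KO SAT, and 1.26% lower and 2.84% higher in KO VAT. The median change of the list was -0.13 in SAT and -0.26 in VAT, against -0.10 and -0.04 for the 68 chaperone genes. The part of dissociation stress in the chaperone results was not tested. The proliferation marker Mki67 rose by 1.78 ± 0.16 in KO SAT and 1.82 ± 0.15 in KO VAT, and its relation to the chaperone genes was not tested.

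The third comparison set visceral against subcutaneous progenitors, separately in each genotype. It uses the same libraries as the genotype comparisons. Chaperone genes split by depot in both directions: in KO, 15 of the 68 were higher in VAT and 15 lower, against 23.3% and 20% of all genes, and in WT 9 were higher and 17 lower, against 19.1% and 17.6%. The share of the 68 genes was 22.1% in each direction in KO, near that of all genes, while in WT 13.2% were higher and 25.0% lower. In both genotypes 8 genes were higher and 10 lower in VAT, and 0 were called in opposite directions. The shares of all genes with such joint calls were not counted. The genes higher in VAT include Dnajc22 in each genotype, which had 0 counts in SAT and passed the filter only through VAT. Groups did not overlap for 13 genes higher and 19 lower in KO, against 23.8% and 21.8% of all genes, and for 10 higher and 14 lower in WT, against 18% and 16.1%. The direction of many of these calls rests on TMM scaling: with library totals only, the median of all genes moved to 0.36 in KO and 0.30 in WT, and 39 and 34 genes were called higher with 3 and 5 lower. The calls are therefore relative to the bulk of genes. In WT, 11 instead of 17 genes were called lower without WT VAT replicate 1 or 2.

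Hspb7 and Hspb1 were higher in VAT while Hspb8 was lower. Hspb7 stood at 13.1 ± 1.0 CPM in KO VAT, against 3.74 ± 0.504 CPM in KO SAT (1.81 ± 0.16, adjusted p = 6.13e-08), and at 17.2 ± 0.344 CPM in WT VAT, against 7.35 ± 1.90 CPM in WT SAT (1.23 ± 0.15, adjusted p = 4.53e-06). Hspb1 was 1.04 ± 0.13 (adjusted p = 6.92e-06) higher in VAT in KO and 0.64 ± 0.13 (adjusted p = 0.000969) in WT, and Hspb6 was called in KO (0.80 ± 0.17, adjusted p = 0.000915) and not in WT (0.19 ± 0.17, adjusted p = 0.408). Hspb8 fell in VAT, by 0.50 ± 0.12 in KO (adjusted p = 0.00205) and 0.72 ± 0.12 in WT (adjusted p = 0.000104), and the KO call ended with library totals only (-0.15, adjusted p = 0.237). Pericyte and smooth muscle markers moved with Hspb7 and Hspb1: they summed to 4718 to 6136 CPM in KO VAT, against 1961 to 2691 CPM in KO SAT, and 5025 to 5569 CPM in WT VAT, against 2446 to 4064 CPM in WT SAT, with 7 of the 8 called higher in VAT in each genotype. Their part in the result was not tested.

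The cytosolic genes Hsph1, Dnajb1, Hspa8 and Hspa1b were lower in VAT in both genotypes. Hsph1 stood at 54.5 ± 5.31 CPM in KO VAT, against 85.5 ± 2.0 CPM in KO SAT (-0.65 ± 0.070, adjusted p = 9.25e-07), and at 63.2 ± 4.25 CPM in WT VAT, against 119 ± 4.13 CPM in WT SAT (-0.92 ± 0.070, adjusted p = 1.93e-08). Dnajb1 had 204, 219.6, 161 and 191 CPM in KO VAT, against 388, 323, 281 and 325 CPM in KO SAT (-0.77 ± 0.096, adjusted p = 5.27e-06), and was lower in WT as well (-0.97 ± 0.096, adjusted p = 4.65e-07). Hspa8 changed by -0.41 ± 0.083 (adjusted p = 0.000648) in KO and -0.57 ± 0.084 (adjusted p = 3.50e-05) in WT. Hspa1b changed by -0.31 ± 0.085 (adjusted p = 0.00752) in KO and -0.52 ± 0.085 (adjusted p = 0.000117) in WT. Hspa1a was not called in KO (-0.20 ± 0.090, adjusted p = 0.0853) and was called in WT (-0.52 ± 0.091, adjusted p = 0.000221). With library totals only, Hsph1 and Dnajb1 were still called lower in both genotypes, as was Hspa8 in WT. The calls of Hspa8 in KO (-0.065, adjusted p = 0.476), Hspa1b in KO (0.043, adjusted p = 0.711), Hspa1b in WT (-0.22, adjusted p = 0.0626) and Hspa1a in WT (-0.22, adjusted p = 0.0737) ended under it.

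All 3 HSP90 genes were called lower in VAT of WT mice under TMM scaling, against 17.6% of all genes, and 0 of the 3 with library totals only. Hsp90ab1 changed by -0.25 ± 0.077 (adjusted p = 0.0138) in KO and -0.41 ± 0.077 (adjusted p = 0.000418) in WT. Hsp90aa1 was not called in KO (-0.19 ± 0.16, adjusted p = 0.352) and was called in WT (-0.59 ± 0.16, adjusted p = 0.00808). Hsp90b1 changed by -0.42 ± 0.097 (adjusted p = 0.00175) in KO and -0.25 ± 0.096 (adjusted p = 0.0498) in WT, where the call was lost without any 1 of 14 libraries (adjusted p = 0.0505 to 0.156, the highest without WT SAT replicate 3). The WT call of Hsp90b1 was also lost with RLE scaling (adjusted p = 0.0522), no filter (0.101), limma-voom (0.0572), only the groups compared (0.13) and a replicate block (0.0732), and it was kept in 4 of 25 settings. With library totals only, Hsp90aa1 (-0.28, adjusted p = 0.15) and Hsp90ab1 (-0.11, adjusted p = 0.246) were not called in WT, and Hsp90b1 stood at 0.053 (adjusted p = 0.63). In KO that scaling ended the calls of Hsp90ab1 (0.099, adjusted p = 0.267) and Hsp90b1 (-0.077, adjusted p = 0.446). In KO, 5 of the 12 ER genes were lower in VAT and 0 higher, against 20% and 23.3% of all genes: Hsp90b1, Dnajb11, Dnajc3, Dnajc10 and Dnajb12. In WT 4 were lower (Dnajb11, Dnajc1, Dnajc25 and Hsp90b1) and 1 higher (Hspa13), against 17.6% and 19.1% of all genes. Dnajb11, a BiP partner that binds unfolded substrate, was lower in both genotypes (-0.36 ± 0.090, adjusted p = 0.00395 in KO and -0.33 ± 0.090, adjusted p = 0.00835 in WT). Hspa13, a small HSP70 relative of the microsomes, was not called in KO (-0.13 ± 0.12, adjusted p = 0.388) and was higher in VAT in WT (0.40 ± 0.12, adjusted p = 0.0131).

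Of the 8 mitochondrial genes, 4 were higher in VAT of KO mice (Hspa9, Hspd1, Dnajc11 and Dnajc15) and 0 lower, against 23.3% and 20% of all genes. In WT 0 were higher and 1, Hspe1, was lower, against 19.1% and 17.6%. Hspa9 had 195, 207, 173 and 199 CPM in KO VAT, against 153, 147, 153 and 149.9 CPM in KO SAT, without overlap (0.36 ± 0.060, adjusted p = 0.000108), and in WT the change was 0.11 ± 0.060 (adjusted p = 0.169). Hspd1 was called in KO (0.22 ± 0.080, adjusted p = 0.0318), a call that ended when KO SAT replicate 2, 3 or 4 was left out (adjusted p = 0.0593, 0.076 and 0.0746) or KO VAT replicate 1, 2 or 4 (0.0811, 0.119 and 0.0666), and with no filter (0.0519) or only the groups compared (0.0564). Hspe1 was called lower in VAT of WT mice (-0.42 ± 0.15, adjusted p = 0.0307), and without WT SAT replicate 3 the change was -0.20 (adjusted p = 0.106). It was also lost without WT VAT replicate 1 (adjusted p = 0.0764) or 2 (0.0844), with library totals only (0.527) and with only the groups compared (0.0831).

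Some J-domain genes of low level differed widely between depots. Dnajc6, which encodes auxilin and strips clathrin from vesicles, had 5.58, 5.74, 11.5 and 5.44 CPM in KO VAT, against 0.624, 0.441, 0.621 and 0.345 CPM in KO SAT (3.80 ± 0.42, adjusted p = 1.24e-06). In WT it had 9.04, 5.09, 10.2 and 8.38 CPM in VAT, against 0.525, 0.511, 0 and 0.543 CPM in SAT (4.29 ± 0.44, adjusted p = 5.61e-07). Dnajc22, whose fly counterpart wurst acts in endocytosis, is given as a description only: it was chosen after its values were seen, and it passed the filter on low counts only through VAT. It had 7, 30, 14 and 11 counts in the KO VAT libraries and 12, 19, 49 and 3 counts in the WT VAT libraries, against 0 in every SAT library. Dnajc22 lies 2.15 Mb from Nr4a1 on chromosome 15, and its genotype effect in VAT was -0.30 ± 0.72 (adjusted p = 0.888). Dnajb13, of cilia and sperm tails, stood at 1.82 ± 0.588 CPM in KO VAT, against 0.376 ± 0.0931 CPM in KO SAT (2.27 ± 0.37, adjusted p = 9.30e-05), with 1.34 ± 0.37 (adjusted p = 0.00916) in WT. Its exons overlap those of Ucp2 on the other strand, and 8.24% of its 75-base words also occur in Ucp2. Reads from such an overlap cannot be told apart, so part of its few counts could come from Ucp2.

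Mesothelial markers also differed between depots, and all 6 were higher in VAT in both genotypes. They summed to 758 to 1467 CPM in KO VAT, against 6.63 to 9.49 CPM in KO SAT, and to 766 to 1491 CPM in WT VAT, against 7.35 to 10.1 CPM in WT SAT. Their part in the Dnajc6, Dnajc22 and Dnajb13 results was not tested. Hspa12b, a distant HSP70 relative known from endothelium, was the chaperone gene with the largest fall in VAT: it had 12.9, 14.4, 14.9 and 15.5 CPM in KO VAT, against 28.7, 48.0, 37.9 and 48.2 CPM in KO SAT (-1.50 ± 0.14, adjusted p = 2.03e-07), and changed by -1.60 ± 0.14 (adjusted p = 1.18e-07) in WT. The 6 endothelial markers summed to 94.7 to 114 CPM in KO VAT, against 229.8 to 309 CPM in KO SAT, and to 120.0 to 134 CPM in WT VAT, against 206 to 230.1 CPM in WT SAT. Tek made up the largest part of each sum, at 48.1 to 68.9 CPM in KO VAT, against 213 to 286 CPM in KO SAT. In WT, Tek had 71.7 to 89.7 CPM in VAT, against 193 to 215 CPM in SAT. By the single genes, 3 of these 6 were called higher in VAT and 1, Tek, lower in each genotype. The part of endothelial cells in the Hspa12b result was not tested.

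Among the remaining HSP70 genes, Hspa2 was higher in VAT in KO (0.85 ± 0.12, adjusted p = 2.69e-05) and WT (0.58 ± 0.12, adjusted p = 0.00121). Hspa4, an HSP110-type exchange factor, was higher in VAT in KO, with an overlap of the libraries (0.17 ± 0.057, adjusted p = 0.0252), and in WT (0.33 ± 0.057, adjusted p = 0.000224). The KO call of Hspa4 ended when KO SAT replicate 1, 2 or 4 was left out (adjusted p = 0.054, 0.075 and 0.0759) or KO VAT replicate 1 or 2 (0.0673 and 0.0828), and with no filter (0.0703). Dnajc18 was lower in VAT in both genotypes (-0.38 ± 0.061, adjusted p = 7.02e-05 in KO and -0.29 ± 0.061, adjusted p = 0.00109 in WT), but was called in neither with library totals only (-0.038, adjusted p = 0.586 in KO and 0.0078, adjusted p = 0.921 in WT). Dnajb4, a cytosolic class B gene, was higher in both (0.34 ± 0.081, adjusted p = 0.00231 in KO and 0.44 ± 0.081, adjusted p = 0.00033 in WT). Of the 68 genes, 29 were called in none of these 4 comparisons of genotype or depot. The share of all genes called in none was not counted.

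**Figure D5:**
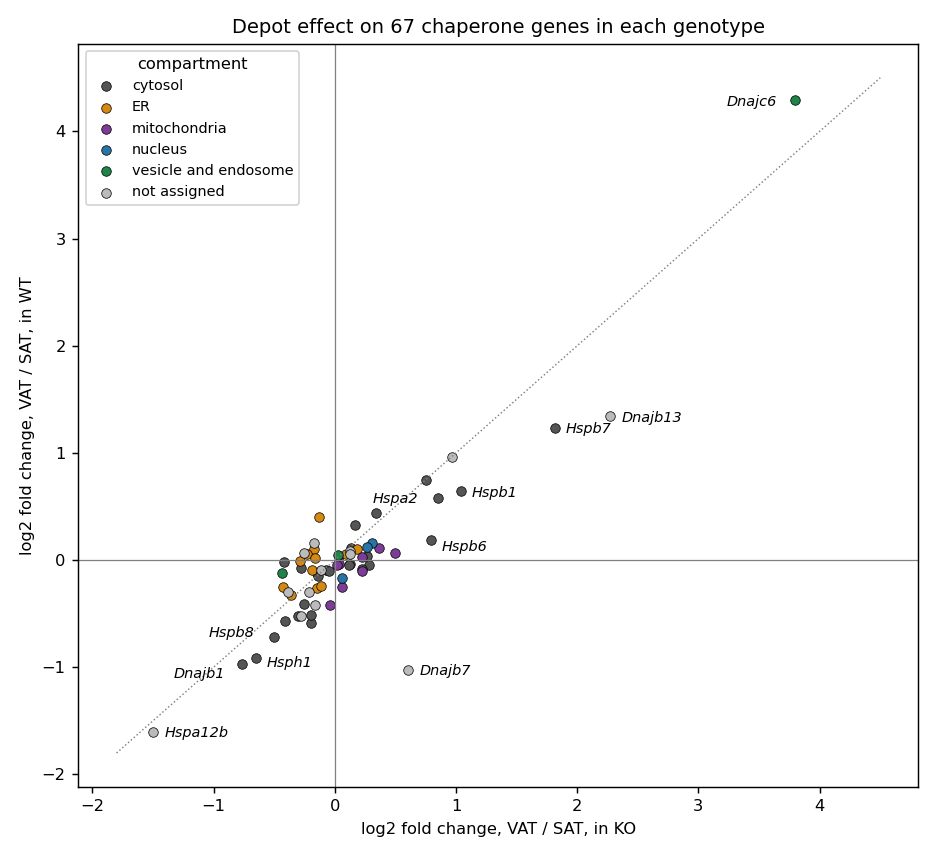
Depot effect on 67 chaperone genes, as log2 fold change of VAT over SAT in KO (horizontal) and WT (vertical), coloured by compartment; the dotted line marks equal effects and Dnajc22 is left out because it was at 0 in SAT. Dnajc6, Dnajb13, Hspb7, Hspb1 and Hspa2 lie to the upper right, and Hspa12b, Dnajb1, Hsph1 and Hspb8 to the lower left.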

How the data were processed

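The authors deposited a table of raw counts per gene, 1 column per library, and these counts are the only measurement used. The submitters' processing notes name build mm10, the aligner STAR, the counter featureCounts, FastQC and DESeq. No versions or strand setting are given in the sources used here. Libraries were made, per the labels, with a NEBNext Ultra kit, which does not mark strand. Total counts ranged from 34655519 to 55551845, so 1 count is 0.0194 to 0.0334 CPM. Genes kept by filterByExpr (minimum count 10) were fitted over all 16 libraries and 4 groups in edgeR 4.0.16 (R 4.3.3; TMM scaling, quasi-likelihood test, 12 residual degrees of freedom, biological coefficient of variation 0.1556), with Benjamini-Hochberg adjustment over all 16842 genes. The test was checked on simulated counts. Gene coordinates, exon lengths and overlaps came from GENCODE vM21 and promoters from RefSeq (GRCm38.p6). DESeq2 1.42.0, limma-voom (limma 3.58.1), other scalings, no filter, a replicate block and leaving out libraries were tried. Named by rule were 15 core members, every member called between genotypes, the 10 called members of smallest p in each depot comparison, and the highest per kilobase in each family. Other members given with values, such as Dnajc10, Dnajc22, Hspb2, Hspb6, Hspa13, Dnajb4 and Dnajb11, were picked after their values were seen. The members and lists were chosen with earlier results of these data known. Low levels rest on few counts, and for these the fitted changes are uncertain.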

Additional observations from a re-analysis of the deposited data

Results flagged for a closer look

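Among 25 named genes in the 4 groups (100 sets of 4 libraries), 7 had 1 library set apart from the other 3 by a gap above Dixon's 95% critical value, which chance gives in about 1 in 20 sets. WT SAT replicate 3 was set apart for 3 genes. It held 514.9 CPM of Hsp90aa1, against 285.6 to 307 CPM in the other WT SAT libraries, 68.7 CPM of Hspe1, against 39.3 to 42.3 CPM, and 0 CPM of Dnajc6, against 0.511 to 0.543 CPM. KO VAT replicate 3 held 11.5 CPM of Dnajc6, against 5.44 to 5.74 CPM in the other KO VAT libraries. KO SAT replicate 2 held 104.6 CPM of Dnaja2, against 109.9 to 110.8 CPM. WT SAT replicate 2 held 0.128 CPM of Dnajb13, against 0.501 to 0.548 CPM. WT VAT replicate 1 held 69.6 CPM of Hsph1, against 60.3 to 61.6 CPM.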

How the results depend on the processing

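Each call was refitted under 25 settings. The calls of Hspa1a, Hspa1b, Hspb1, Hsph1 and Hspb7 in KO SAT were kept in all of them. In the setting that summed Hspa1a and Hspa1b, the call kept for these genes was that of the sum. With DESeq2, 2 chaperone genes were higher and 13 lower in KO SAT, 2 higher and 8 lower in KO VAT, and 1 higher and 1 lower in the difference between depots. With library totals only, 39 were higher and 3 lower in VAT of KO mice, and 34 higher and 5 lower in WT. With only the groups compared in the fit, 11 were lower in VAT of WT mice. Leaving out libraries gave 0 to 2 higher and 5 to 10 lower in KO SAT, 0 to 1 higher and 2 to 7 lower in KO VAT, 11 to 17 higher and 14 to 20 lower in VAT of KO mice, 9 to 13 higher and 11 to 16 lower in VAT of WT mice, and 0 to 1 higher and 0 lower in the difference between depots. Library totals only turned 5 depot changes above 0: Dnajc3 (0.056), Hsp90ab1 (0.099) and Hspa1b (0.043) in KO, and Dnajc18 (0.0078) and Hsp90b1 (0.053) in WT. With only the groups compared, Hspa8 (adjusted p = 0.0987) and Hspb8 (0.0729) lost their calls in KO SAT.

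Correlations of the deviations of same-numbered libraries ran from -0.16 to 0.176 over 24 pairs. Between WT VAT and WT SAT they were 0.144, 0.119 and 0.113 for replicates 1, 2 and 3, and -0.041 for replicate 4. In each of the 6 pairs of groups at least 1 number was under 0.1, so the numbers were not taken as pairs. With a replicate block, 0 were higher and 7 lower in KO SAT, 0 and 4 in KO VAT, 15 and 15 in VAT of KO mice, 9 and 14 in WT, and 0 and 0 in the difference between depots. The cause of these changes was not tested.

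Over all genes, edgeR called 582 higher and 410 lower in KO SAT, against 883 and 808 with DESeq2 and 367 and 142 with only the groups compared. In KO VAT it called 478 higher and 212 lower, against 773 and 465 with DESeq2 and 139 lower with library totals only. In the difference between depots it called 22 and 23, against 246 and 281 with DESeq2, 6 and 8 with a replicate block, and 10 lower with library totals only. Library totals only gave 9137 higher and 1407 lower in VAT of KO mice, and 7853 and 1323 in WT. Library number and the low counts of genes such as Dnajb7 and Dnajc22 limit which changes could pass.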
